A study of Mus musculus with 8 samples.

Results

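The integrin subunits and laminin chains were described in RNA from the distal end of the colon of BALB/c mice, which are inbred; all were males aged 5 weeks. Members were the probe sets whose only gene symbol is an integrin alpha or beta subunit or a laminin alpha, beta or gamma chain. The rule matched 37 probe sets of 18154 with 1 symbol. With the brightest probe set kept for each gene these gave 36 genes of 16645, namely 18 integrin alpha subunits, 8 integrin beta subunits and 10 laminin chains.

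The AA mice (4 arrays) had an induced appendicitis and, after 1 week, an appendicectomy. The SS mice (4 arrays) had 2 sham laparotomies with 1 week between them. Both groups were unmodified mice of the same strain, sex and age, and the operation lay at the proximal end of the colon, away from the piece that was sampled. No group with removal of an uninflamed appendix was among the arrays, so appendicitis and appendicectomy cannot be told apart. The name of the deposited gene set table gives 3 days after appendectomy. Per the labels, each array held 1 colon sample, but the animals are not named, and p-values cover only the spread between the samples. Each of 2 labelled batches held 2 AA and 2 SS arrays.

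Integrins are paired receptors of 1 alpha and 1 beta subunit that hold cells to the matrix or to other cells and signal in both directions. Laminins are cross-shaped trimers of an alpha, a beta and a gamma chain and form the sheet of the basement membrane. In the gut, 1 set of chains anchors the epithelium, another wraps muscle cells and vessels, and leukocytes use subunits of their own to leave the blood and to stay in the mucosa. A bulk piece of colon holds all of these cells, and fewer cells of a type and less RNA per cell cannot be told apart in it.

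The values are log2 expression per probe set, and differences are AA minus SS on that scale, each with its standard error (SE) from limma. The 8 arrays had medians of 6.93 to 6.99 and correlated with each other at 0.974 to 0.995 across probe sets. AA replicate 3 and SS replicate 1 stood apart from the other arrays on the first principal component, which held 31.9% of the variance. On the second component, which held 27.4%, AA replicate 2 had the most extreme score, at 27.1. Hoxd13, a homeobox gene of the distal gut, was at 6.54 in AA replicate 2, against 8.82 to 10.63 in the other AA arrays and 8.96 to 10.05 in the SS arrays. Hoxa13, of the same position, showed no such gap, at 8.08 to 8.50 in AA and 7.88 to 8.40 in SS. Epithelial markers had list means of 11.88 to 12.03 in AA and 11.77 to 11.98 in SS.

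Itga5, which pairs with Itgb1 as the main fibronectin receptor, had the largest difference of the 36, at 0.72 ± 0.16 (SE), a 1.64-fold higher level in AA. Of the 36 genes 26 were higher and 10 lower, and over all genes 52.2% were higher. The median difference was 0.14, against 0.0066 over all genes. By limma, 0 of the 36 had an adjusted p under 0.05, as had 0% of all genes, and the smallest adjusted p of a member was 0.289, that of Itga5. At an unadjusted p under 0.05 limma gave 7 members higher and 1 lower. Among all genes 5.67% were higher and 2.29% lower by that criterion, against 19.4% and 2.78% of the members. The count of 7 was 2 without SS replicate 2 or SS replicate 4, and 3 without AA replicate 3 or AA replicate 4. It was 2 with quantile normalization and 3 with median centring of the arrays.

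**Figure D1:**
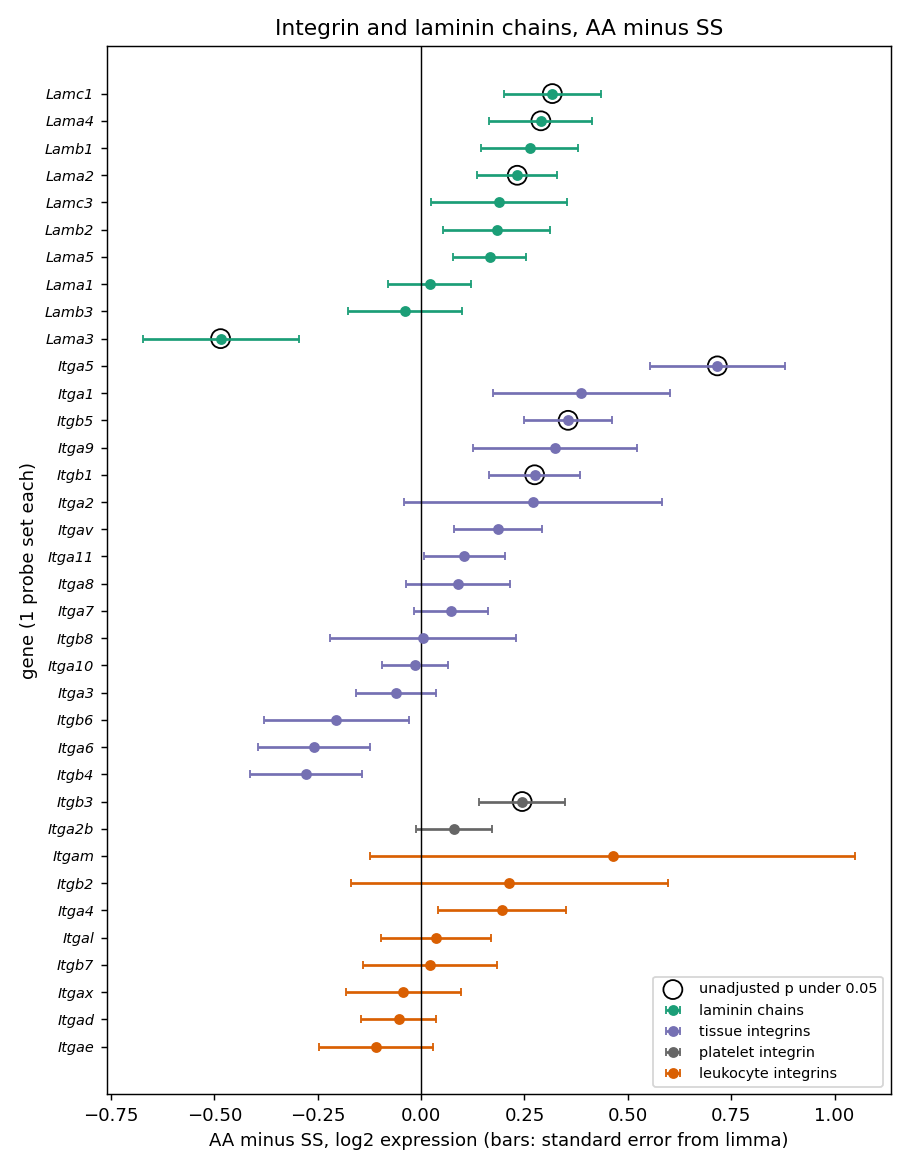
Differences between AA and SS (log2 expression) of the 36 genes, 1 row per gene, in the order laminin chains, tissue integrins, platelet integrin and leukocyte integrins from the top, with the standard error from limma as bars. Rings mark the 8 genes at an unadjusted p under 0.05, of which 7 lie on the AA side and Lama3 on the SS side.

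The sharpest separation among the receptors lay in Itga5 and Itgb5, subunits of a fibronectin and a vitronectin receptor. Itgav, Itgb3 and Itga8, of receptors with such ligands, overlapped between the groups. Itga5 read 8.11, 7.84, 7.58 and 7.60 in AA replicates 1 to 4, against 6.72, 7.03, 7.19 and 7.33 in SS replicates 1 to 4. Every AA array was above every SS array, and the groups averaged 7.78 ± 0.25 in AA and 7.07 ± 0.26 in SS (SD, n = 4 each). Its difference was 1.10 in batch 1 and 0.33 in batch 2. Itga5 kept an unadjusted p under 0.05 in limma in all 19 other settings, in which its difference ran from 0.33 to 1.10.

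Itgb5, the partner of Itgav in a vitronectin receptor, read 8.93, 9.02, 9.10 and 8.89 in the AA arrays, against 8.47, 8.82, 8.73 and 8.52 in the SS arrays. The groups did not overlap, and the difference of 0.36 ± 0.11 (SE) was much the same in the batches, at 0.34 in batch 1 and 0.38 in batch 2. Its adjusted p in limma was 0.456. Without AA replicate 3 and SS replicate 1 together the difference of Itgb5 was 0.22.

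Itgb1, the beta subunit shared by most matrix receptors, read 10.84, 11.10, 11.04 and 10.69 in the AA arrays, against 10.63, 10.55, 10.74 and 10.65 in the SS arrays. The groups overlapped only in AA replicate 4, which lay below SS replicate 3. The difference was 0.27 ± 0.11 (SE), with an adjusted p of 0.581 in limma. Itgav, the alpha subunit that pairs with several beta subunits to bind the RGD motif of fibronectin and vitronectin, differed by 0.19 ± 0.11 (SE), with 0.38 in batch 1 and -0.01 in batch 2. Itga8, the nephronectin receptor of smooth muscle, differed by 0.09 ± 0.12 (SE).

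**Figure D2:**
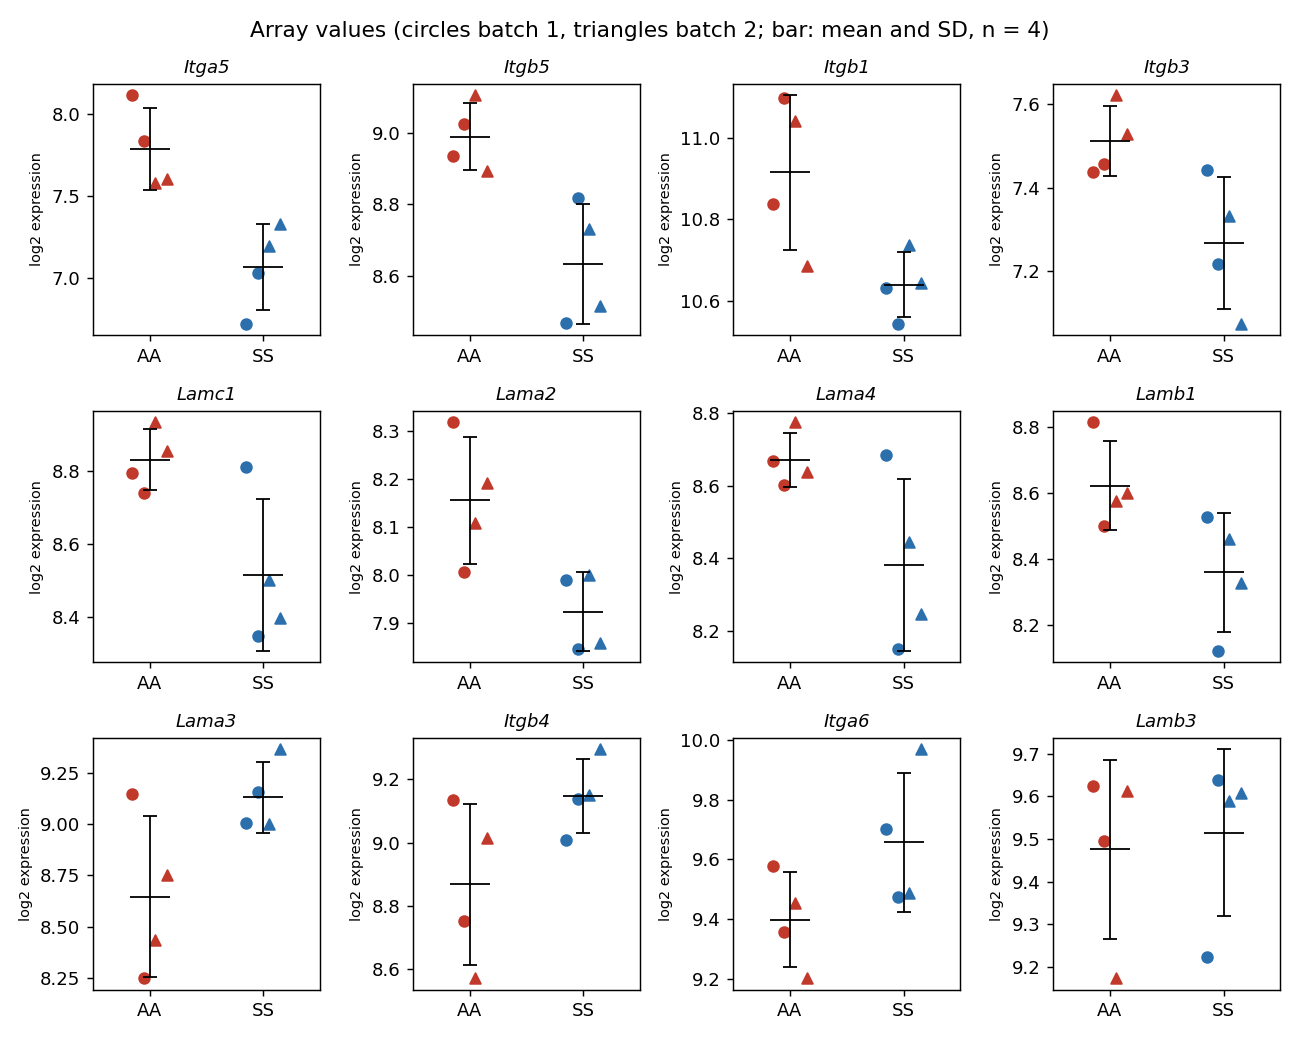
Log2 expression of 12 genes on each array, AA left of SS in each panel, with circles for batch 1, triangles for batch 2 and black bars for the mean and SD (n = 4). In the panels of Itga5, Itgb5 and Lama2 every AA point lies above every SS point, and in that of Lama3 3 of the 4 AA points lie below every SS point.

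Of the 10 laminin chains 8 were higher and 2 lower, and the median was 0.19, or 0.15 in batch 1 and 0.21 in batch 2. In limma 3 chains (Lamc1, Lama2 and Lama4) were higher and 1 (Lama3) lower at an unadjusted p under 0.05, and 0 passed adjusted over all genes. Of all genes 52.2% were higher, with 5.67% higher and 2.29% lower at that unadjusted p.

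Lama2, the alpha chain of the muscle cell basement membrane, read 8.32, 8.01, 8.11 and 8.19 in the AA arrays, against 7.99, 7.85, 8.0005 and 7.86 in the SS arrays. The groups did not overlap, by a gap narrower than the spread within AA, and the difference was 0.23 ± 0.10 (SE). Lamc1, the gamma chain of most laminins, read 8.79, 8.74, 8.94 and 8.86 in the AA arrays, against 8.81, 8.35, 8.50 and 8.40 in the SS arrays. Here SS replicate 1 stood among the AA arrays and the other 3 SS arrays lay below all of them. The difference of Lamc1 was 0.32 ± 0.12 (SE), with 0.19 in batch 1 and 0.45 in batch 2, and it was 0.44 without SS replicate 1.

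Lama4, the alpha chain of vessel basement membranes, was split in a like way. It read 8.67, 8.60, 8.78 and 8.64 in AA, against 8.68, 8.15, 8.44 and 8.25 in SS, where again replicate 1 stood among the AA arrays. Its difference was 0.29 ± 0.12 (SE), and 0.41 without SS replicate 1. Lamb1, the beta chain that joins Lama4 or Lama2 with Lamc1, differed by 0.26 ± 0.12 (SE) and stood at 8.62 ± 0.13 in AA and 8.36 ± 0.18 in SS (SD, n = 4 each).

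Lama5, the alpha chain of the mature epithelial and vessel basement membrane, read 7.12, 7.15, 7.06 and 7.18 in the AA arrays, against 6.92, 6.99, 7.10 and 6.84 in the SS arrays. The difference of 0.17 ± 0.09 (SE) left SS replicate 3 among the AA values. Lamb2 and Lamc3 differed by 0.18 ± 0.13 (SE) and 0.19 ± 0.16 (SE). Both turned between batches, with -0.10 and -0.22 in batch 1 and 0.47 and 0.59 in batch 2. Lama1, the alpha chain of the embryonic laminin, was dim and differed by 0.02 ± 0.10 (SE).

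Lama3, the alpha chain of the laminin that anchors the epithelium, read 9.15, 8.25, 8.44 and 8.75 in the AA arrays, against 9.004, 9.16, 8.999 and 9.37 in the SS arrays. AA replicate 1 stood among the SS arrays and the other 3 AA arrays lay below all of them, and the level in AA was 0.715 of that in SS. The difference was -0.48 ± 0.19 (SE), with an adjusted p of 0.570 in limma, -0.38 in batch 1 and -0.59 in batch 2, and -0.33 without AA replicate 2. Lamb3, the beta chain of the same trimer, differed by only -0.04 ± 0.14 (SE), with AA replicate 3 at 9.17 and SS replicate 1 at 9.22 below the other 6 arrays.

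Itgb4 and Itga6 form the receptor for that laminin in hemidesmosomes, the rivets of the epithelial cell base. Itgb4 read 9.14, 8.75, 8.57 and 9.02 in the AA arrays, against 9.01, 9.14, 9.15 and 9.29 in the SS arrays, a difference of -0.28 ± 0.14 (SE). Itga6 averaged 9.40 ± 0.16 in AA and 9.66 ± 0.23 in SS (SD, n = 4 each), a difference of -0.26 ± 0.14 (SE). Both had one sign in the batches, at -0.13 and -0.12 in batch 1 and -0.43 and -0.40 in batch 2. Itga3, a laminin receptor subunit of epithelium, differed by -0.06 ± 0.10 (SE), and Itgb6, an epithelial subunit that activates TGF-beta, by -0.21 ± 0.18 (SE). These 6 epithelial genes, grouped after their values were seen, were all lower, with a median of -0.23. In limma 1 of them (Lama3) had an unadjusted p under 0.05, as had 2.29% of all genes in that direction. Over all genes 52.2% were higher. Because the values guided the grouping, the shared direction of the 6 is no separate result. Lama5 and Itga2, also of epithelium, were outside the group and higher, at 0.17 and 0.27. The median of the 6 was -0.06 in batch 1 and -0.41 in batch 2. Lamb3 and Itgb6 turned between batches, at 0.13 each in batch 1 and -0.21 and -0.54 in batch 2, and Itgb6 was at -0.014 without SS replicate 4.

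**Figure D3:**
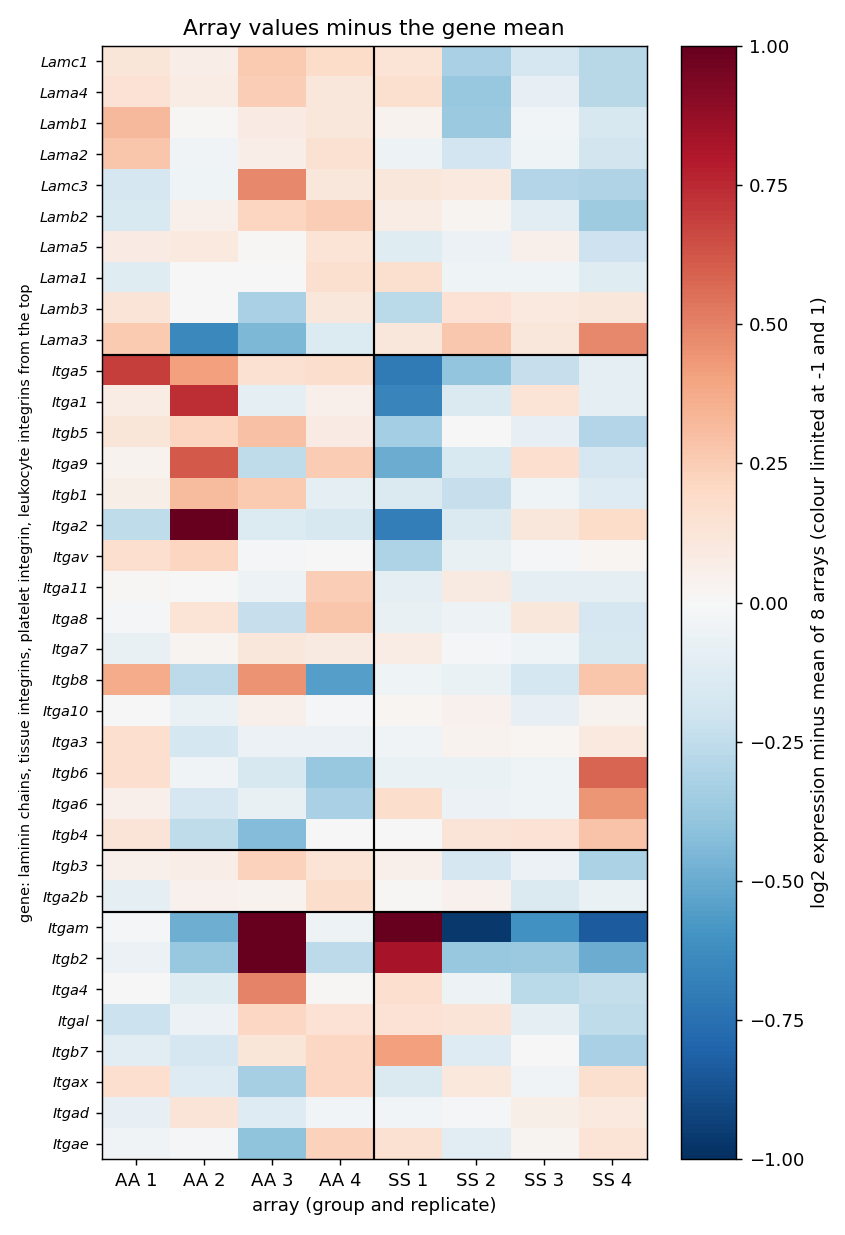
Log2 expression of the 36 genes on the 8 arrays minus the mean of each gene, with AA replicates left of SS replicates and colours limited at -1 and 1. SS replicate 1 is dark red for Itgam and Itgb2 together with AA replicate 3, and AA replicate 2 stands out in Itga1, Itga2 and Itga9.

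In the 16 tissue integrin subunits as a whole 11 were higher and 5 lower, and the median was 0.10, or 0.13 in batch 1 and -0.01 in batch 2. In limma 3 of the 16 (Itga5, Itgb5 and Itgb1) were higher and 0 lower at an unadjusted p under 0.05. Of all genes 52.2% were higher, with 5.67% higher and 2.29% lower at that p. The collagen receptor subunits belonged to those that depended on single arrays. Itga1, a collagen receptor of smooth muscle and fibroblasts, read 8.98, 9.64, 8.82 and 8.96 in AA, against 8.24, 8.76, 9.04 and 8.81 in SS. Its difference of 0.39 ± 0.21 (SE) was 0.81 in batch 1 and -0.04 in batch 2. Itga2, a collagen receptor of epithelium and platelets, was at 8.78 in AA replicate 2 and at 7.44 to 7.55 in the other AA arrays, against 6.99 to 7.87 in SS. Without AA replicate 2 its difference was -0.11, against 0.27 ± 0.31 (SE) with all arrays. Itga1 and Itga2 are neighbours on chromosome 13 in RefSeq, assembly GRCm38.p6. Itga9, which binds tenascin, also peaked in AA replicate 2, at 8.25, and differed by 0.32 ± 0.20 (SE), with 0.65 in batch 1 and -0.00041 in batch 2. Itga10 and Itga11, collagen receptors of cartilage and fibroblasts, differed by -0.01 ± 0.08 (SE) and 0.10 ± 0.10 (SE). Itga7, the laminin receptor of muscle, and Itgb8, which activates TGF-beta, differed by 0.07 ± 0.09 (SE) and 0.0039 ± 0.22 (SE).

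Itgb3, the beta subunit of the platelet fibrinogen receptor and of a vascular vitronectin receptor, read 7.44, 7.46, 7.62 and 7.53 in the AA arrays, against 7.44, 7.22, 7.33 and 7.07 in the SS arrays. Only SS replicate 1 reached the AA values, and the difference was 0.24 ± 0.10 (SE), with an adjusted p of 0.603 in limma. Its platelet partner Itga2b differed by 0.08 ± 0.09 (SE). Of the other platelet markers Pf4, a platelet chemokine, was at 7.54 in AA and 6.82 in SS. Gp9 and Ppbp went the other way, at 6.01 and 3.98 in AA and 6.19 and 3.99 in SS. The 4 measured platelet markers, Itga2b among them, had list means of 5.84 to 6.13 in AA and 5.76 to 6.12 in SS, and their part in the Itgb3 difference was not tested.

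The 8 subunits of leukocytes showed no common direction. Of these 5 were higher and 3 lower, and the median was 0.03, or -0.20 in batch 1 and 0.34 in batch 2. In limma 0 of the 8 had an unadjusted p under 0.05, against 5.67% of all genes higher and 2.29% lower at that p. The median of the 8 was -0.02 when AA replicate 3 was left out and 0.15 when SS replicate 1 was. It was also below 0 without AA replicate 4 (-0.034) or SS replicate 4 (-0.0064), and with median centring (-0.0064). Of the 8 subunits only 3 lay above the median level of 7.13 over the probe sets, and the median difference of these 3 was 0.21.

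Itgb2, the beta subunit of the leukocyte adhesion receptors, read 7.32, 7.001, 8.51 and 7.12 in the AA arrays, against 8.20, 7.001, 7.01 and 6.89 in the SS arrays. Itgam, its alpha partner on macrophages and neutrophils, read 7.21, 6.74, 8.72 and 7.18 in AA, against 8.71, 6.26, 6.62 and 6.402 in SS. Both genes were high in 1 array of each group, AA replicate 3 and SS replicate 1. The differences were 0.21 ± 0.38 (SE) for Itgb2 and 0.46 ± 0.59 (SE) for Itgam. Within batches Itgam turned, at -0.51 in batch 1 and 1.44 in batch 2, and without both of these arrays it was 0.69. Its unadjusted p in limma was under 0.05 without SS replicate 1 (a difference of 1.15) and without both of these arrays. It was also under 0.05 with array weights (a difference of 1.02) and in batch 2 alone. The adjusted p-values in these settings were 0.229 to 0.301. The array weights were 0.27 for SS replicate 1 and 11.5 for SS replicate 2. Without AA replicate 3 Itgam differed by -0.041 and Itgb2 by -0.20, and without SS replicate 2 Itgam differed by 0.17.

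Macrophage markers (8 of 8 measured, all 8 higher in AA) had list means of 8.01 to 9.27 in AA and 7.71 to 8.60 in SS. The same 2 arrays were highest within their groups. In limma 3 of the 8 were higher at an unadjusted p under 0.05, as were 5.67% of all genes. Neutrophil markers (6 of 7 measured, all 6 higher, 0 at that p) peaked in the same arrays, at 5.02 to 6.57 in AA and 4.73 to 5.60 in SS. The part of these cells in the Itgam and Itgb2 values was not tested.

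**Figure D4:**
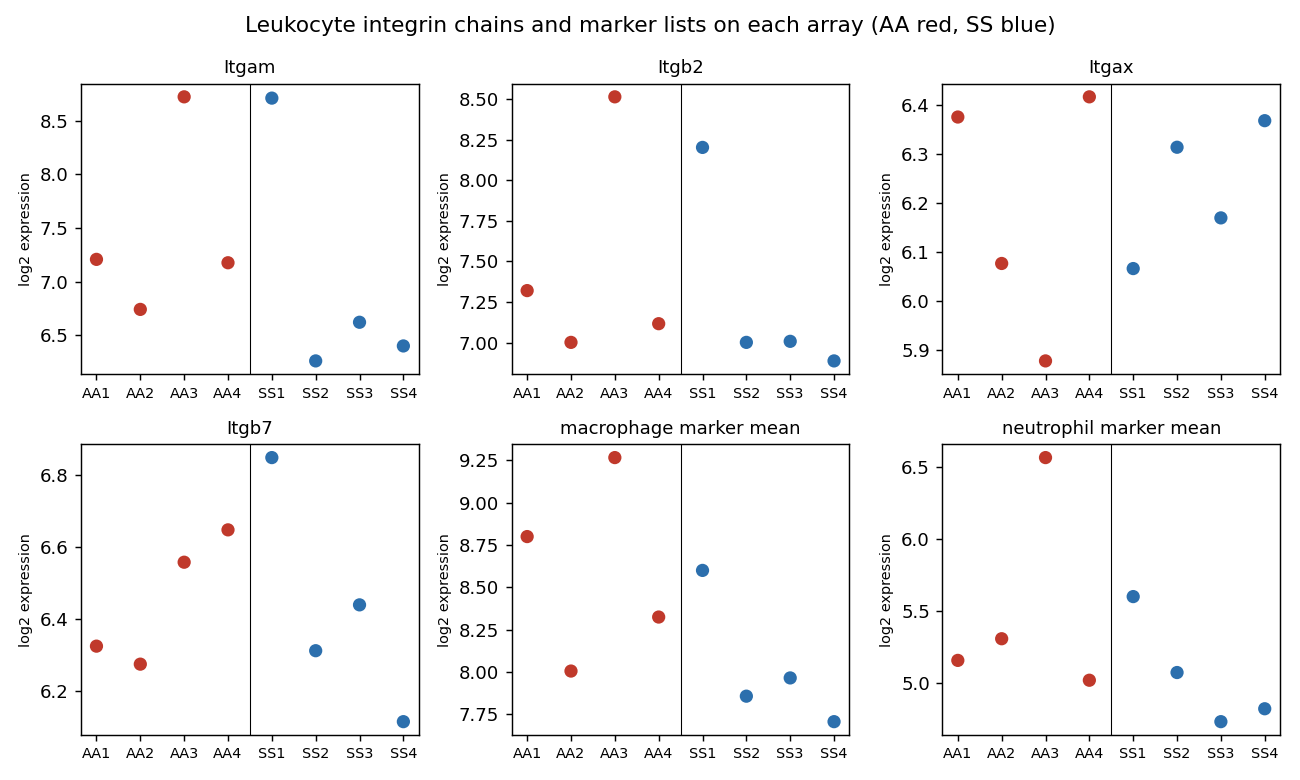
Log2 expression of Itgam, Itgb2, Itgax and Itgb7 and the mean of the macrophage and neutrophil marker lists on each array, AA (red) left of SS (blue). AA replicate 3 and SS replicate 1 are the highest of their groups for Itgam, Itgb2 and the neutrophil list, whereas Itgax is lowest in these arrays.

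Itgax, the subunit of dendritic cells and some macrophages, was lowest of its group in AA replicate 3 (5.88) and in SS replicate 1 (6.07), and differed by -0.04 ± 0.14 (SE). Itgad, a subunit of tissue macrophages, differed by -0.05 ± 0.09 (SE) in its brighter probe set and -0.0094 in the other. Itgam, Itgax and Itgad lie next to each other on chromosome 7 in RefSeq, assembly GRCm38.p6. Itgal, the subunit of lymphocytes, differed by 0.04 ± 0.13 (SE), with -0.28 in batch 1 and 0.35 in batch 2. Like Itgam and Itgb2 it was highest of its group in AA replicate 3 (6.61) and in SS replicate 1 (6.55), though by small gaps, with AA replicate 4 at 6.55 and SS replicate 2 at 6.53.

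Itgb7, which pairs with Itga4 for gut homing and with Itgae for holding lymphocytes to epithelium, read 6.33, 6.28, 6.56 and 6.65 in AA, against 6.85, 6.31, 6.44 and 6.12 in SS. The difference was 0.02 ± 0.16 (SE), with -0.28 in batch 1 and 0.32 in batch 2. Itga4 read 7.75, 7.63, 8.24 and 7.76 in AA, against 7.91, 7.70, 7.48 and 7.51 in SS, a difference of 0.20 ± 0.16 (SE). It too turned between batches, at -0.12 in batch 1 and 0.51 in batch 2, and was at 0.036 without AA replicate 3. Itgae was at 5.97 ± 0.26 in AA and 6.08 ± 0.12 in SS (SD, n = 4 each). B cell markers, which were lower in 7 of 7 measured genes, had list means of 5.36 to 5.91 in AA and 6.17 to 6.51 in SS, and T cell markers 6.01 to 6.21 in AA and 6.08 to 6.51 in SS.

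The batches agreed in sign for 16 of the 36 genes. In 11 of these AA was higher in both batches and in 5 lower, against 25.8% and 19.5% of all genes. The arrays of the groups did not overlap for 3 members, all with AA above SS (Itga5, Itgb5 and Lama2), and for 0 with AA below. Over all genes 4.33% lay entirely above and 1.84% entirely below.

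**Figure D5:**
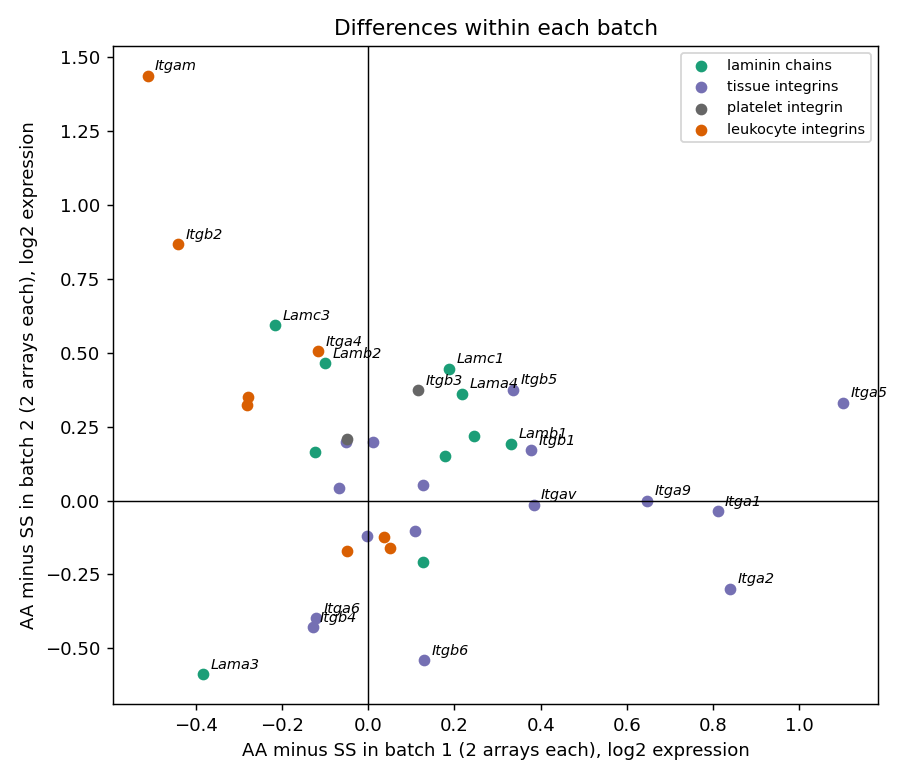
Difference between AA and SS within batch 1 (horizontal) and within batch 2 (vertical), in log2 expression with 2 arrays per group, 1 point per gene. Itga5, Itgb5 and Lamc1 lie in the upper right, Lama3 in the lower left, and Itgam and Itgb2 in the upper left, where the batches differ in sign.

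Partners of these chains in the basement membrane were measured as well. Over all genes 52.2% were higher in AA, 5.67% higher and 2.29% lower at an unadjusted p under 0.05 in limma, and the counts of each list are read against these shares. Of 17 genes 16 were higher in AA, with a median of 0.20, 4 higher and 0 lower at an unadjusted p under 0.05 in limma. Col4a1 and Col4a2, the collagen chains of every basement membrane, differed by 0.29 ± 0.10 (SE) and 0.29 ± 0.08 (SE), and Smoc2, a matrix modulator, by 0.35 ± 0.11 (SE). In these 3 genes the AA arrays lay above those of SS without overlap. Frem1, a protein of embryonic basement membranes, was the lower one, at -0.16 ± 0.08 (SE), with every AA array below every SS array. Of the 4 hemidesmosome genes 1 was higher and 3 lower. Cd151, a tetraspanin that binds laminin receptors, differed by 0.27 ± 0.09 (SE), with an unadjusted p under 0.05. The plakin linkers Plec and Dst differed by -0.20 ± 0.09 (SE) and -0.20 ± 0.14 (SE), and Col17a1 by -0.04 ± 0.09 (SE). In Plec every AA array lay below every SS array.

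Among 17 measured ligands of matrix and plasma 14 were higher, with a median of 0.21, 3 of them and 0 lower at an unadjusted p under 0.05. Ccn1, a matricellular ligand of integrins, averaged 8.31 ± 0.60 in AA and 7.21 ± 0.10 in SS (SD, n = 4 each). Its relative Ccn2 differed by 0.41 ± 0.11 (SE), and Postn, the fibroblast matrix protein periostin, by 0.47 ± 0.18 (SE). The lower ones, Fga, Vwf and Vtn, differed by at most -0.03. Of 9 measured ligands on cells 6 were higher and 1 (Thy1, at 0.34 ± 0.14 SE) had an unadjusted p under 0.05. Jam2 and Jam3 differed by 0.33 ± 0.16 (SE) and 0.22 ± 0.15 (SE), and Cdh1, the epithelial cadherin that Itgae binds, by -0.17 ± 0.11 (SE). Icam2 and F11r differed by -0.09 ± 0.13 (SE) and -0.01 ± 0.11 (SE).

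Of 30 measured activators and adaptors 26 were higher, with a median of 0.10, 4 higher and 2 lower at an unadjusted p under 0.05. Actn1, an actin crosslinker, Fermt2, the kindlin of matrix-bound cells, and Zyx, a focal adhesion protein, differed by 0.37 ± 0.12 (SE), 0.43 ± 0.15 (SE) and 0.29 ± 0.10 (SE). The linkers Tns3 and Tln2 differed by -0.31 ± 0.12 (SE) and -0.22 ± 0.09 (SE), and Tns2 by -0.07 ± 0.11 (SE). In these 5 lists, over all genes, 0 passed an adjusted p under 0.05 in limma, and Ccn1 had an adjusted p of 0.298.

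Marker lists of other cells were set beside the chains. The fibroblast list (8 of 8 higher, 7 at an unadjusted p under 0.05 in limma) had means of 10.30 to 10.58 in AA and 9.52 to 10.17 in SS. Within SS it was highest in replicate 1, where Lamc1 and Lama4 were high as well. The macrophage, neutrophil, mesothelial, adipocyte, B cell and T cell lists were also highest within SS in replicate 1. Smooth muscle markers (8 of 8 higher, 5 at that p) had means of 10.62 to 11.26 in AA and 10.43 to 10.86 in SS, highest in AA replicate 2. Endothelial markers (6 of 8 higher, 1 at that p) lay at 6.81 to 7.001 in AA and 6.70 to 6.91 in SS. Mesothelial markers (7 of 7 higher, 4 at that p) lay at 7.42 to 8.74 in AA and 6.51 to 7.75 in SS. Adipocyte markers (0 of 6 higher, 0 lower at that p) lay at 5.93 to 7.33 in AA and 6.51 to 8.45 in SS. Of all genes 52.2% were higher, with 5.67% higher and 2.29% lower at that p. The part of the cells of these lists in the differences of the chains was not tested.

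In the authors' deposited table of gene sets raised in AA, the set of matrix receptor interaction had a normalized enrichment score of 2.13 over 80 genes, that of focal adhesion 2.1 over 182 genes and the integrin pathway 2 over 34 genes. That table names sets and no genes, and it was made from the same arrays.

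The stretches of 250 bases before the start of Itga5, Itgb5 and Lama2 are shown because these were the 3 members whose arrays did not overlap. They are RefSeq sequences of build GRCm38.p6, at chr15:103366792-103367041 on the minus strand for Itga5, chr16:33829415-33829664 on the plus strand for Itgb5 and chr10:27616943-27617192 on the minus strand for Lama2, and run 5′ to 3′ along the gene. Capitals mark the GC box GGGCGG, searched on both strands.
Itga5: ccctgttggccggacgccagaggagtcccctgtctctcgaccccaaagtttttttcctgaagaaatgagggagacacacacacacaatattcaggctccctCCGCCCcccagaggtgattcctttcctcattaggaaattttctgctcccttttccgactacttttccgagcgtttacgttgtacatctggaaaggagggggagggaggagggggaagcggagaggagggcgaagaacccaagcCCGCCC
Itgb5: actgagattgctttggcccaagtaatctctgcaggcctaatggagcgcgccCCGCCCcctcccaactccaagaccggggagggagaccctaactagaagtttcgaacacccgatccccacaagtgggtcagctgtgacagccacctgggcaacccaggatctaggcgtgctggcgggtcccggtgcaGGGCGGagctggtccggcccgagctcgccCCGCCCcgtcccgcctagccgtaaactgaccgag
Lama2: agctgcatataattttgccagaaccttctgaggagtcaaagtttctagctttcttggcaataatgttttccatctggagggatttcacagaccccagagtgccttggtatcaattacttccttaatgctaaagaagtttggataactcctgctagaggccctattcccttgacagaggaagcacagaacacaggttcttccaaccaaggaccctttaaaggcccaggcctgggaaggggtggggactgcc

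Itga5 held 2 GC boxes, Itgb5 3 and Lama2 0, and G or C made up 55.6%, 65.2% and 47.2% of the bases in that order. A GC box was found in 8 of the 23 members with a promoter sequence. By window it was in 9 of the 26 of these members (34.6%) and in 32.7% of all 32851 windows of that length. The AP-1 motif TGANTCA was in 1 member (Itgax), 3.85% of member windows and 6.75% of all windows. The TEAD motif CATTCC was in 3 members (Itga10, Itgb1 and Lamb3), 11.5% of member windows and 12.6% of all windows. Both strands were searched. These matches describe the letters in the windows alone.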

How the data were processed

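RNA of 8 colon samples (100 ng each) was hybridised to Affymetrix MoGene arrays. The authors deposited 1 log2 value per probe set and array, made by RMA with Affymetrix Power Tools and Partek 6.4, per the submitters' processing notes; the sources used here do not give the genome build or any filter. The deposited batch means differed by at most 6e-05, so the batch means had been removed before deposit. Where batch means are subtracted, a high value on 1 array lowers every array of its batch by the same amount. AA minus SS within a batch is then unchanged. The authors' deposited gene set table holds an enrichment score, a p-value and a q-value per set.

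The 23442 probe sets were named through the platform annotation; 18154 had 1 symbol, 1559 several and 3729 none, and 3 listed under Rpl35 and Itgam together were not used. All 36 members matched RefSeq by Entrez identifier. In R 4.3.3, limma 3.58.1 (lmFit, eBayes) fitted batch and group to the 18154 probe sets, with 5 residual degrees of freedom, and p-values were adjusted by Benjamini-Hochberg, with 0.05 as the threshold. The script was tested on simulated data with shifts much larger than the differences of the members. That test does not show whether differences of the members' size would be found. Precision is limited by the number of arrays.

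Every member was named. Array values were given for members at an unadjusted p under 0.05, for the leading member of each class and for Itgb1, Itgb2, Itgb7, Lama5 and Lamc1, with those of Itgb4, Itga1, Itgam and a few further chains added after their values were seen. Of each partner list, the 3 genes with the smallest p in each direction were named. Members and lists were chosen with earlier results of these data known. Alternatives were another batch term, block, filter, normalization, variance model, array weights, arrays left out and single batches.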

Additional observations from a re-analysis of the deposited data

Results flagged for a closer look

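In 6 of the 72 groups of 4 arrays (36 genes in AA and in SS) 1 array lay far from the other 3 by Dixon's criterion; chance flags about 1 in 20 groups. Itga2 was at 8.78 in AA replicate 2, against 7.44 to 7.55 in the other AA arrays. SS replicate 1 was at 8.71 for Itgam, with the others at 6.26 to 6.62, at 8.20 for Itgb2, with the others at 6.89 to 7.01, and at 9.22 for Lamb3, with the others at 9.59 to 9.64. Itgb6 was at 9.94 in SS replicate 4, against 9.29 to 9.32 in the other SS arrays. Itga11 was at 6.22 in SS replicate 2, against 6.03 in each of the other SS arrays.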

How the results depend on the processing

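Under 19 other settings the 8 members at an unadjusted p under 0.05 kept their direction, and Itga5 kept that p in all 19. The 7 higher members became 2 with quantile normalization and 3 with median centring, and 2 to 8 with 1 array left out. The 1 lower member became 2 with quantile normalization, median centring or array weights, 0 without AA replicate 3 and SS replicate 1 together or in batch 1 alone, 4 in batch 2 alone, and 0 to 3 with 1 array left out. The leukocyte median of 0.03 turned to -0.0064 with median centring and -0.20 in batch 1 alone, was 0.34 in batch 2 alone, and ran from -0.034 (without AA replicate 4) to 0.15 with 1 array left out. With probe sets under the median level left out, the medians were 0.21 for leukocyte subunits, 0.19 for tissue subunits and 0.23 for laminin chains. The tissue median of 0.10 turned to -0.0069 in batch 2 alone. The laminin median of 0.19 ran from 0.11 (without SS replicate 4) to 0.25 (without SS replicate 1). Of all probe sets 0 passed the adjusted threshold in limma except with array weights, which gave 177, none of them a member, and weighted SS replicate 2 at 11.5. The cause of these changes was not tested.

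The deviations of same-numbered arrays from their group means correlated at -0.44 to -0.09. Removal of the batch means before deposit pushes such correlations below 0, so they cannot tell whether the numbers pair the samples. With the replicate number as a block 6 members were higher and 1 lower, and the medians stayed at 0.03, 0.10 and 0.19. Signal over background is unknown, and 12 of the 36 members lay under the median level of 7.13.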
